A study of Homo sapiens with 10 samples.

Results

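Irradiated and control kidney tubule cells were compared for the transcripts of 10 genes through which a stressed cell is seen, or spared, by natural killer (NK) cells and T cells. The members were chosen by name: the NKG2D ligands ULBP1, ULBP2, ULBP3, RAET1G, MICA and MICB, the DNAM-1 ligands PVR and NECTIN2, and the PD-1 ligands CD274 (PD-L1) and PDCD1LG2 (PD-L2). Each matched 1 row of the 61587 rows of the raw count table by its Ensembl identifier, and all 10 passed the minimum of 200 counts over all samples, as did 19006 genes in all. The cells were RPTEC/TERT1, human renal proximal tubule epithelial cells immortalised with telomerase, a single cell line. The cell line labels count up from RPTEC/TERT1 to RPTEC/TERT10 over the 10 samples, and all were taken as RPTEC/TERT1, as the study's design and methods name it. The irradiated group (n = 5) received 10 Gy of gamma rays from a caesium-137 source, and the control group (n = 5) was carried to the irradiator without exposure. PolyA RNA was taken on day 7 from both groups. The 5 replicate numbers were shared by the groups and paired them in the fits below. The sources used here do not say that the replicates were separate cultures started apart, so p-values measure the spread between these samples.

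NKG2D is an activating receptor of NK cells and of many cytotoxic T cells. Its ligands are distant relatives of the MHC class I molecules that most healthy cells carry in small amounts and that rise with DNA damage, transformation or infection. DNAM-1 (CD226) is a second activating receptor, which binds PVR and NECTIN2, although the inhibitory receptor TIGIT binds the same ligands. PD-1 is an inhibitory receptor of activated lymphocytes, and interferon-gamma acting through JAK kinases is the best known inducer of its ligands. Senescent cells can be cleared by NK and T cells but can also persist, so the balance of these ligands is of interest in an irradiated epithelium.

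Library totals ran from 66269311 to 131555873 counts. CDKN1A, the p21 inhibitor of the cell cycle and a marker of damage-induced arrest, separated the groups: it stood at 66.7 to 208 CPM (the usual per-library unit of relative abundance, with library totals scaled by TMM factors) in control and at 584 to 768 CPM in irradiated samples, a log2 fold change of 2.92 (SE 0.24, edgeR adjusted p = 9.11e-05). Control samples 1 and 3 stood apart from the other controls in the proliferation marker MKI67, at 76.7 and 60.4 CPM against 217 to 234 CPM, and control 3 had the highest CDKN1A of the controls, at 208 CPM. Values without samples 1 and 3 are therefore given beside the members whose call they changed or whose log2 fold change they moved by over 1.5 times. Of 13 proximal tubule and epithelial markers, 10 were tested, of which 2 rose and 1 fell, against 23.9% and 22.7% of all genes tested. The list summed to 2112 to 2658 CPM in control and 2316 to 3262 CPM in irradiated samples, led by KRT8, PAX8, EPCAM and ANPEP. Mean CDH6 rose from 37.7 to 246 CPM and mean CDH2 from 0.253 to 1.13 CPM, while mean AQP1 fell from 1.82 to 1.19 CPM. The edgeR adjusted p of these 3 was at or below 0.00635. CUBN and GGT1 had control means of 4.37 and 10.0 CPM and did not pass. LRP2, SLC34A1 and HNF4A, which define the proximal tubule in the kidney, were at or near 0, with no sample above 0.131 CPM. The 17 lymphocyte and myeloid markers and receptors summed to between 2.81 and 3.35 CPM in control and between 3.39 and 4.02 CPM in irradiated samples. Among them PDCD1 (PD-1), CD3E, CD2, NKG7 and GNLY did not exceed 0.0435 CPM in any sample, PTPRC (CD45) did not exceed 0.540 CPM, and the receptors KLRK1 (NKG2D) and CD226 did not exceed 0.250 CPM. CD96 and CD14 rose, but neither exceeded 0.659 CPM. Of 8 stromal and endothelial markers, 5 were tested and 4 rose, against 23.9% of all genes tested. The list summed to 17.7 to 24.9 CPM in control and 33.6 to 46.0 CPM in irradiated samples. COL1A1 held most of that sum, at 15.2 to 23.2 and 26.8 to 39.1 CPM, while COL3A1 and COL1A2 were at or near 0 throughout. CDH5 went from 0.361 to 0.984 CPM in control to 1.85 to 4.24 CPM in irradiated samples (log2 fold change 2.48). DCN went from 0.110 to 0.522 CPM to 0.454 to 4.45 CPM (2.36), and PECAM1 rose by 0.72 on the log2 scale. Each had an edgeR adjusted p at or below 0.00519, and VWF did not pass (0.965). The part of the stromal and endothelial markers in the members' differences was not tested.

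Of the 10 members, 7 rose after irradiation, 0 fell and 3 did not pass the test (edgeR quasi-likelihood test with the replicate number as a block, Benjamini-Hochberg adjusted p under 0.05 over the 19006 genes). Over all genes tested the same call was made upward for 23.9% and downward for 22.7%. In 6 members every irradiated sample lay above every control sample, which held for 14.6% of all genes tested, and in 0 members did every irradiated sample lie below, against 12.0% of all genes tested. The members that rose were the PD-1 ligands CD274 and PDCD1LG2 and 5 of the 6 NKG2D ligands. MICB, PVR and NECTIN2 did not pass. The median log2 fold change was 0.48 over the 10 members and -0.0098 over all genes tested. In bulk RNA, more transcript in every cell and more cells that carry it cannot be told apart.

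**Figure D1:**
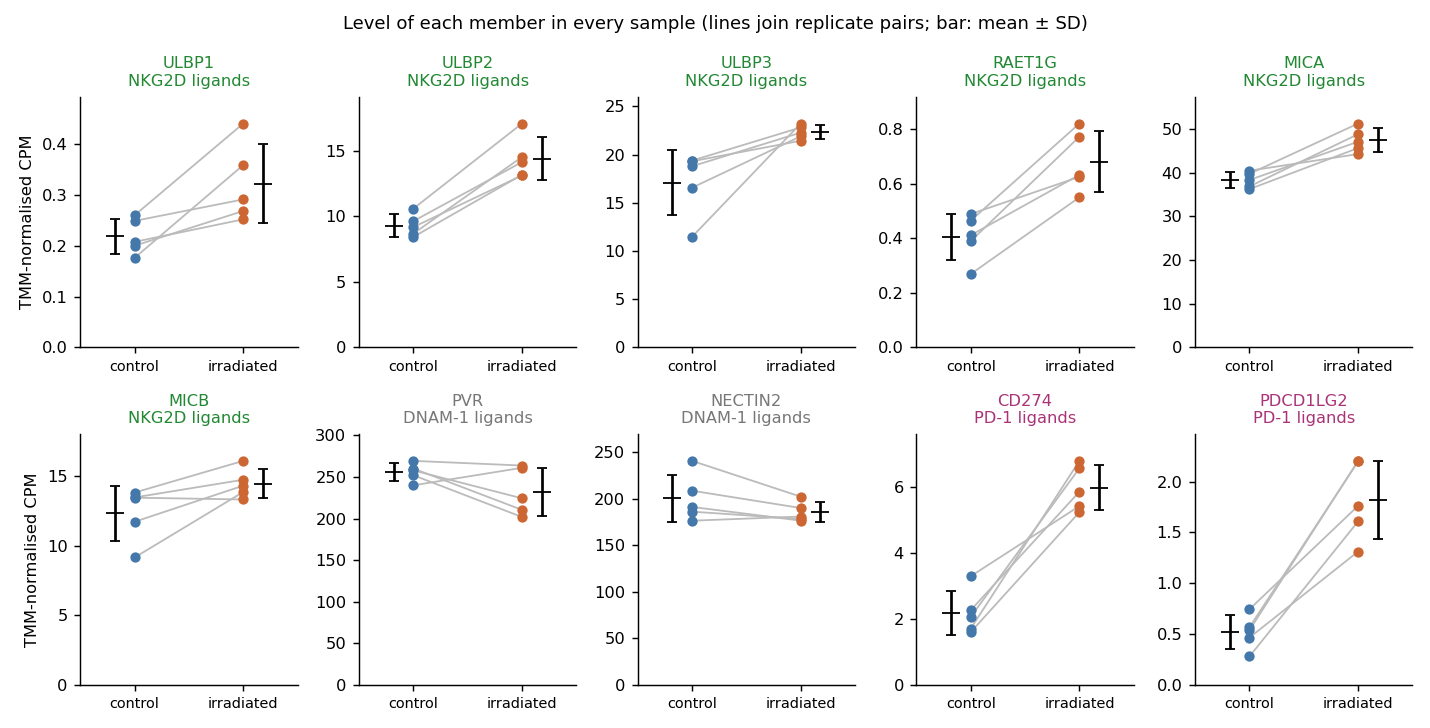
Level of each of the 10 members in every sample, in TMM-normalised CPM on a linear axis from 0. Points are samples, grey lines join samples with the same replicate number, and black bars give the mean ± SD (n = 5). The irradiated samples of ULBP2, ULBP3, RAET1G, MICA, CD274 and PDCD1LG2 lie above all their controls, whereas those of ULBP1, MICB, PVR and NECTIN2 overlap with them.

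MICA and MICB lie 79565 bases apart in the MHC class I region of chromosome 6 (GRCh38, MICA at chr6:31399784-31415315 and MICB at chr6:31494881-31511124, both on the plus strand). They are the most MHC-like of the NKG2D ligands, are anchored by a transmembrane segment, and have long been known to respond to heat shock. Their RefSeq promoter windows (GRCh38.p14, 250 bases before to 50 after the RefSeq start, which for both genes lies inside the longer GENCODE gene) are shown because they are alike and both hold the motif matches in capitals. The windows were identical at 246 of 316 alignment columns (77.8%), whereas the next closest pair of members, ULBP2 and RAET1G, reached 51.7%. The capitals mark a heat shock element core (GAANNTTC) that runs into a match to the interferon regulatory factor (IRF) core AANNGAAA on the minus strand. 
MICA, chr6:31403345-31403644, plus strand: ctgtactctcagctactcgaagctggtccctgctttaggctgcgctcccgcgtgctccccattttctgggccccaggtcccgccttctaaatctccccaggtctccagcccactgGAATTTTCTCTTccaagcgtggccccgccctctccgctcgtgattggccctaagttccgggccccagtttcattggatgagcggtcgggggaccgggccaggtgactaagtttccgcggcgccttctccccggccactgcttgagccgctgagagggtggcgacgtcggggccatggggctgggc
MICB, chr6:31497895-31498194, plus strand: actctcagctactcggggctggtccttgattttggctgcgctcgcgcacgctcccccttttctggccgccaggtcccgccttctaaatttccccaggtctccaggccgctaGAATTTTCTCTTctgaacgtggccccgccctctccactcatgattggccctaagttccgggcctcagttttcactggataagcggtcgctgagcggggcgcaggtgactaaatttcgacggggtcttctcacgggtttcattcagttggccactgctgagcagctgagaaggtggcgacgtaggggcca
The heat shock element core was at -135 to -128 in MICA and -139 to -132 in MICB, counted from the start site, and the overlapping IRF core at -131 to -124 and -135 to -128. A heat shock element core was in 6.77% and an IRF core in 22.8% of all 35116 windows. Such matches are descriptions of these bases and not binding sites.

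MICA stood at 36.8, 40.4, 39.7, 38.3 and 36.2 CPM in control samples 1 to 5 and at 48.8, 44.2, 51.2, 47.1 and 45.6 CPM in the irradiated samples with the same numbers. The groups did not overlap, and the controls varied little. The mean went from 38.3 ± 1.81 to 47.4 ± 2.73 CPM (SD, n = 5 each), a rise of 1.24-fold (log2 fold change 0.31, SE 0.050, edgeR adjusted p = 0.00202). MICB stood at 9.16, 13.5, 11.7, 13.8 and 13.5 CPM in control and at 13.9, 13.3, 14.3, 16.1 and 14.8 CPM in irradiated samples 1 to 5. It was higher in 4 of 5 pairs, with controls 1 and 3 the lowest and pair 2 almost level. The log2 fold change of 0.24 (SE 0.089, 95% interval 0.04 to 0.45) gave an edgeR adjusted p of 0.0566 and did not pass. Without samples 1 and 3 it was 0.10 (edgeR adjusted p = 0.264), without replicate 1 it was 0.16 (0.138), and without replicate 2 it was 0.32 (0.0260). MICB passed with DESeq2 (adjusted p = 0.0417). Of its exon length, 1.97% lay under exons of MICB-DT on the other strand. The part of the low MKI67 of controls 1 and 3 in the MICB difference was not tested beyond these values.

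The ULBP and RAET1 genes form a cluster on the long arm of chromosome 6 that spans 185943 bases from RAET1E to ULBP3. They code for NKG2D ligands of a simpler build than MICA, with no alpha-3 domain, and several are held in the membrane by a lipid anchor. ULBP2 (chr6:149942014-149949235, plus strand) and ULBP3 (chr6:150061053-150069121, minus strand) are shown with the related RAET1L (also called ULBP6) because each window held a match to the AP-1 motif TGANTCA, the recognition sequence of JUN and FOS dimers and a theme of the study. The capitals mark that match. 
ULBP2, chr6:149941764-149942063, plus strand: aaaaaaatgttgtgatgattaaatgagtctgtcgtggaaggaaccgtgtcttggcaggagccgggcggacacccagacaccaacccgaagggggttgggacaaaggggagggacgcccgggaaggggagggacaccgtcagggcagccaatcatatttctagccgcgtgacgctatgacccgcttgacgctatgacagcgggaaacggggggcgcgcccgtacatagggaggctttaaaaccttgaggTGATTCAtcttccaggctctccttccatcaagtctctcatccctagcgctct
ULBP3, chr6:150069072-150069371, minus strand: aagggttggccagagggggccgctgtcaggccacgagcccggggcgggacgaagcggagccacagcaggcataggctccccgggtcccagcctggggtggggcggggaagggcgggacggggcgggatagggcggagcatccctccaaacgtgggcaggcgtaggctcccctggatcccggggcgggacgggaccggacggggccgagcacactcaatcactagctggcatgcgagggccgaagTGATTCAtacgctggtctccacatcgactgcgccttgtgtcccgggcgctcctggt
RAET1L, chr6:150025483-150025782, minus strand: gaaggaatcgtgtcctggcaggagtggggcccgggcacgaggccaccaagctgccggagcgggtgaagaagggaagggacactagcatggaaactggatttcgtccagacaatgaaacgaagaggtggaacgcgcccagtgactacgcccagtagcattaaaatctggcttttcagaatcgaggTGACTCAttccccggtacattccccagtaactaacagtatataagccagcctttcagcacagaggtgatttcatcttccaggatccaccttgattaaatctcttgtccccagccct
In ULBP2 and ULBP3 the match lay across or beside the start site, at -2 to 5 and -6 to 1, with the same 7 bases, and in RAET1L it lay at -66 to -60. It was in 2 of the 9 members' windows and in 7.71% of all windows. The windows of ULBP1 and RAET1G held no match. RAET1E, which had more than 1 window, held a match in window 2, at -79 to -73. It did not pass the test (log2 fold change -0.16).

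ULBP2 was the clearest of the 6 NKG2D ligands. It stood at 8.68, 9.18, 10.6, 8.43 and 9.63 CPM in control samples 1 to 5 and at 14.5, 13.1, 17.1, 13.2 and 14.1 CPM in the irradiated samples. The lowest irradiated value exceeded the highest control value, and the difference within pairs was between 0.52 and 0.74 on the log2 scale. The mean rose 1.55-fold, from 9.30 ± 0.854 to 14.4 ± 1.61 CPM (log2 fold change 0.63, SE 0.062, edgeR adjusted p = 0.000186). Of the 150-base windows of its transcripts, 4.30% were shared with RAET1L, so a small share of its reads could have aligned to both genes and gone uncounted.

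ULBP3, a lipid-anchored ligand, was at 16.6, 19.3, 11.5, 18.8 and 19.4 CPM in control and at 21.9, 21.4, 23.2, 22.3 and 22.8 CPM in irradiated samples. All irradiated samples were above all controls, and control 3 was far below the other controls. The mean rose 1.33-fold, from 17.1 ± 3.35 to 22.3 ± 0.712 CPM (log2 fold change 0.41, SE 0.12, edgeR adjusted p = 0.0274). Without replicate 3 the log2 fold change was 0.26 (edgeR adjusted p = 0.00794), and without samples 1 and 3 it was 0.19 (0.0167). The call was lost without replicate 1, 4 or 5 (edgeR adjusted p = 0.0754, 0.0505 and 0.0509) and when library totals alone set the scale (0.0549). The size of the ULBP3 difference thus rested on pair 3, while its direction was the same in 5 of 5 pairs.

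RAET1G and ULBP1 were scarce. RAET1G (chr6:149916878-149923121, minus strand), a ligand with a transmembrane form, stood at 0.489, 0.465, 0.269, 0.390 and 0.412 CPM in control and at 0.626, 0.821, 0.551, 0.773 and 0.633 CPM in irradiated samples. The groups did not overlap. It rose 1.69-fold (log2 fold change 0.76, SE 0.15, edgeR adjusted p = 0.00421), on 518 counts in all. Of its exon length, 9.29% lay under exons of RAET1E-AS1 on the other strand. Reads there would be dropped by this kind of counting if it ignored strand. The labels name a TruSeq RNA kit and the study's methods a NEBNext Ultra II kit, so whether the libraries kept strand is not settled. ULBP1 (chr6:149963943-149973715, plus strand), named for its binding to a cytomegalovirus protein, held 262 counts in all, between 17 and 39 per sample. It stood at 0.208, 0.200, 0.249, 0.176 and 0.260 CPM in control and at 0.252, 0.269, 0.292, 0.359 and 0.441 CPM in irradiated samples, higher in 5 of 5 pairs with overlap between the groups. The log2 fold change of 0.55 (SE 0.18, 95% interval 0.13 to 0.98) passed narrowly (edgeR adjusted p = 0.0390) and did not pass with DESeq2 (adjusted p = 0.210), at a minimum of 1 count (0.0906), on library totals alone (0.0613) or without replicate 1, 2 or 4 (0.0572, 0.0620 and 0.130). At 17 counts the exact 95% Poisson interval ran from 9.90 to 27.2 counts, which covers counting error only.

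The 2 NKG2D ligands outside the members, RAET1L and RAET1E, are given for the completeness of the family. RAET1L, whose window is printed above, stood at 0.342, 0.644, 0.0997, 0.381 and 0.420 CPM in control and at 2.89, 1.61, 2.81, 3.26 and 2.80 CPM in irradiated samples. This was the largest change of the 8 NKG2D ligands, with a log2 fold change of 2.84 (SE 0.38, 95% interval 1.95 to 3.72, edgeR adjusted p = 0.000786) from 10 to 90 counts per control sample. Control 3, with 10 counts, was the lowest of its group. RAET1E was at 0.0997 to 0.294 CPM in control and 0.147 to 0.224 CPM in irradiated samples and did not pass (log2 fold change -0.16, SE 0.25, edgeR adjusted p = 0.636).

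PVR and NECTIN2 are immunoglobulin-like adhesion molecules of epithelial junctions that NK cells read through DNAM-1. They lie 180012 bases apart on chromosome 19 (PVR at chr19:44643798-44666162 and NECTIN2 at chr19:44846175-44889223, both plus strand). Neither passed the test. PVR stood at 269, 258, 240.0, 252 and 260.2 CPM in control and at 264, 224, 261, 202 and 210.4 CPM in irradiated samples. Irradiated samples 1 and 3 were at the level of the controls, and irradiated 2, 4 and 5 were below all of them. The mean went from 256 ± 10.9 to 232 ± 28.7 CPM (log2 fold change -0.15, SE 0.072, 95% interval -0.32 to 0.02, edgeR adjusted p = 0.130). The call depended on those pairs, since without samples 1 and 3 the log2 fold change was -0.29 (edgeR adjusted p = 0.00232) and without replicate 3 it was -0.21 (0.0188). Of the exon length of PVR, 20.6% lay under exons of CEACAM19 and of a second gene on the same strand, and reads that fall on exons of more than 1 gene are dropped by this kind of counting. CEACAM19 itself fell (log2 fold change -0.53, SE 0.088, edgeR adjusted p = 0.00217), which was looked at after the values were seen, and its part in the PVR value was not tested.

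NECTIN2 stood at 209, 177, 241, 186 and 191 CPM in control and at 190.1, 181, 202, 178 and 177 CPM in irradiated samples. The groups overlapped, with the highest controls in samples 1 and 3. The mean went from 201 ± 25.3 to 186 ± 10.7 CPM (log2 fold change -0.11, SE 0.050, 95% interval -0.22 to 0.01, edgeR adjusted p = 0.120). It was called lower under upper-quartile scaling (-0.14, edgeR adjusted p = 0.0443) and on library totals alone (-0.18, 0.0181), and under the latter PVR was called lower too (-0.22, 0.0313). Without replicate 3 the NECTIN2 log2 fold change was -0.06 (edgeR adjusted p = 0.260), and without samples 1 and 3 it was also -0.06 (0.291). Under scaling by library totals the median over all genes was -0.086, against -0.0098 under TMM. For both DNAM-1 ligands a fall as deep as -0.22 (NECTIN2) or -0.32 (PVR) was within the interval.

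The PD-1 ligands changed most among the members. CD274 and PDCD1LG2 lie 39964 bases apart on chromosome 9 (CD274 at chr9:5450503-5470566 and PDCD1LG2 at chr9:5510531-5571282, both plus strand). PD-L1 is made by many epithelial cells and by leukocytes, PD-L2 mostly by dendritic cells and macrophages, and binding of either to PD-1 dampens T cell signalling. The CD274 window is printed because it held more matches to interferon-linked motifs than that of any other member with a window. The capitals mark 3 overlapping IRF cores on the minus strand, 1 IRF core on the plus strand, and then a gamma-activated site (GAS, TTCNNNGAA), a sequence found in genes that interferon-gamma induces. 
CD274, chr9:5450292-5450591, plus strand: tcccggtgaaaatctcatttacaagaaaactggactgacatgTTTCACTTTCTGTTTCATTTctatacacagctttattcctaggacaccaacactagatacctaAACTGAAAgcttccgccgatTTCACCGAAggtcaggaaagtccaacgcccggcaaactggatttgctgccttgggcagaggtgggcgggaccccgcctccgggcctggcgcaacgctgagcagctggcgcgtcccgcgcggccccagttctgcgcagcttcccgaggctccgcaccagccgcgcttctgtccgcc
The IRF cores were at -208 to -201, -202 to -195, -196 to -189 and -145 to -138, and the GAS at -125 to -117. A GAS was in 1 of the 9 members' windows and in 7.66% of all windows. At least 4 IRF cores were in 0.273% of all windows, a count that was made after the 4 in CD274 had been seen.

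CD274 stood at 1.60, 2.27, 3.30, 1.71 and 2.07 CPM in control samples 1 to 5 and at 5.25, 5.87, 5.43, 6.80 and 6.58 CPM in the irradiated samples. No values overlapped, and control 3 was the highest control. The mean rose 2.80-fold, from 2.19 ± 0.676 to 5.99 ± 0.687 CPM (log2 fold change 1.49, SE 0.18, 95% interval 1.08 to 1.90, edgeR adjusted p = 0.000449). PDCD1LG2 stood at 0.465, 0.744, 0.279, 0.566 and 0.538 CPM in control and at 1.31, 1.76, 1.61, 2.20 and 2.20 CPM in irradiated samples. Here too the groups were apart, although control 3 was the lowest control and not the highest. The mean rose 3.55-fold, from 0.518 ± 0.169 to 1.82 ± 0.387 CPM (log2 fold change 1.83, SE 0.19, 95% interval 1.40 to 2.26, edgeR adjusted p = 0.000214). The smallest of the 5 pair differences of CD274 was 0.72, in pair 3, and that of PDCD1LG2 was 1.22, in pair 2, on the log2 scale.

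**Figure D2:**
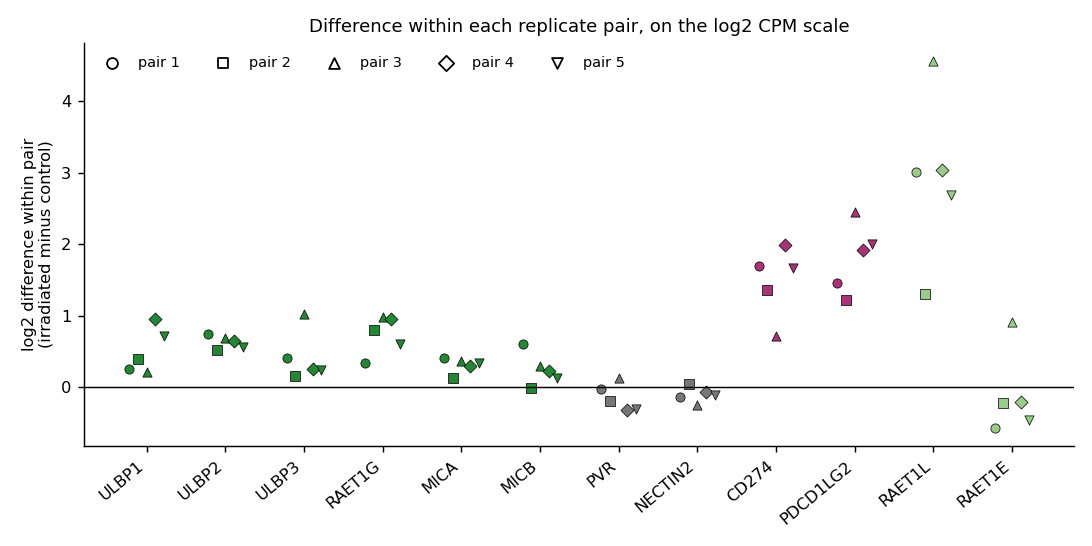
Difference within each replicate pair, irradiated minus control, in log2 CPM with a prior count of 2, for the 10 members and for RAET1L and RAET1E. Symbols mark the pair and colours the class. The 2 PD-1 ligands lie between 0.72 and 2.44 in every pair, while PVR and NECTIN2 lie on both sides of 0.

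The classes were set side by side as a description, without a test, since the members were chosen with results known. Of the 8 activating ligands 5 rose, with a median log2 fold change of 0.36, and of the 2 inhibitory ligands both rose, with a median of 1.66. Among the activating ligands 5 of 6 NKG2D ligands rose (median 0.48), all but MICB, and 0 of 2 DNAM-1 ligands did (median -0.13), against 23.9% of all genes tested. With 2 genes in each of the smaller classes these counts say little about a receptor. The order of the class medians was the same in each of the 5 pairs. The median difference within a pair was 0.27 to 0.53 for the NKG2D ligands, -0.21 to -0.06 for the DNAM-1 ligands and 1.29 to 1.95 for the PD-1 ligands, against -0.025 to 0.022 for all genes tested.

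**Figure D3:**
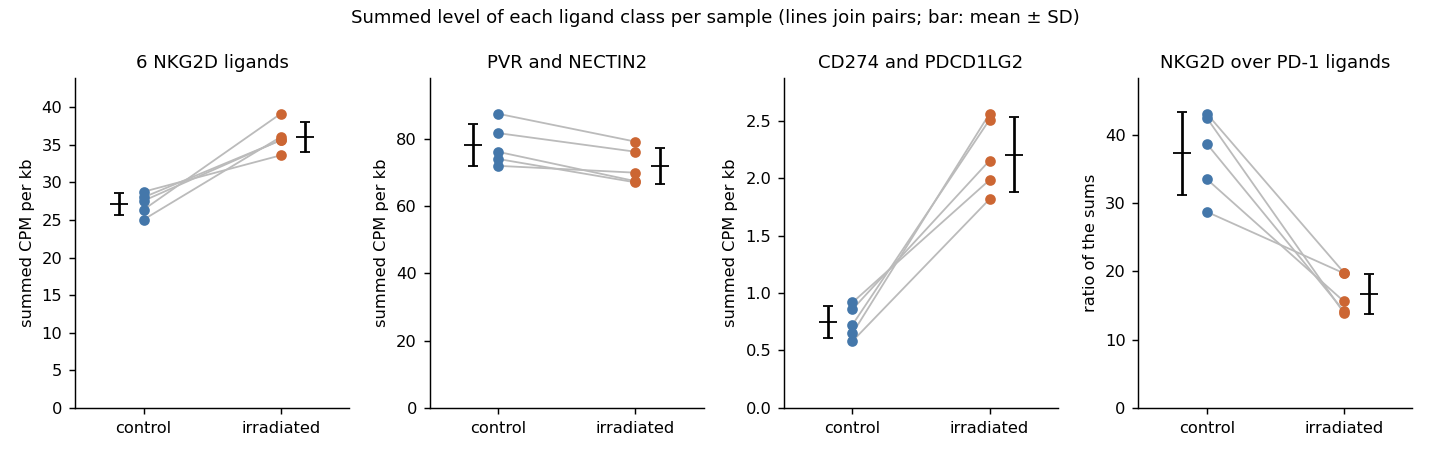
Summed level of each class per sample, in TMM-normalised CPM per kb of exon on linear axes from 0, and the ratio of the NKG2D sum to the PD-1 sum. Points are samples, grey lines join pairs, and bars give the mean ± SD (n = 5). The ratio lies between 28.7 and 43.1 in control and between 13.9 and 19.8 in irradiated samples.

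Levels between genes were compared only per length, as CPM per kb of exon. Per length the activating members far outweighed the PD-1 ligands in both groups. The sums leave out the further inhibitory ligands given below, among them the abundant CD24, HLA-E and CD276. PVR and NECTIN2 also bind the inhibitory TIGIT, so these sums do not weigh activating against inhibitory ligands as a whole. The 6 NKG2D ligands summed to 27.2 ± 1.46 CPM per kb in control and to 36.0 ± 1.99 CPM per kb in irradiated samples. PVR and NECTIN2 summed to 78.2 ± 6.29 and 71.9 ± 5.44 CPM per kb. The PD-1 ligands summed to 0.746 ± 0.141 and 2.20 ± 0.324 CPM per kb. The ratio of the NKG2D sum to the PD-1 sum therefore went from 37.3 ± 6.13 to 16.7 ± 2.93, with no overlap between the groups, and the ratio of the DNAM-1 sum to the PD-1 sum from 107.7 ± 21.5 to 33.5 ± 7.25. These ratios describe RNA and not protein at the cell surface.

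In control cells the order per length was NECTIN2 (53.6 CPM per kb), PVR (24.5), MICA (9.95), ULBP2 (6.97), ULBP3 (5.50), MICB (4.41), CD274 (0.533), RAET1G (0.273), PDCD1LG2 (0.213) and ULBP1 (0.0682). Among members, neighbours whose sample ranges overlapped in control were ULBP3 with MICB and RAET1G with PDCD1LG2. After irradiation NECTIN2 (49.6 CPM per kb), PVR (22.3), MICA (12.3), ULBP2 (10.8), ULBP3 (7.18), MICB (5.18) and CD274 (1.46) kept their places, and PDCD1LG2 (0.747) moved above RAET1G (0.458). The ranges of MICA and ULBP2, and those of PDCD1LG2 and RAET1G, overlapped after irradiation. ULBP1 remained the lowest member, at 0.10 CPM per kb. RAET1L went from 0.280 to 1.99 CPM per kb, and its range overlapped with that of CD274 in both groups.

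**Figure D4:**
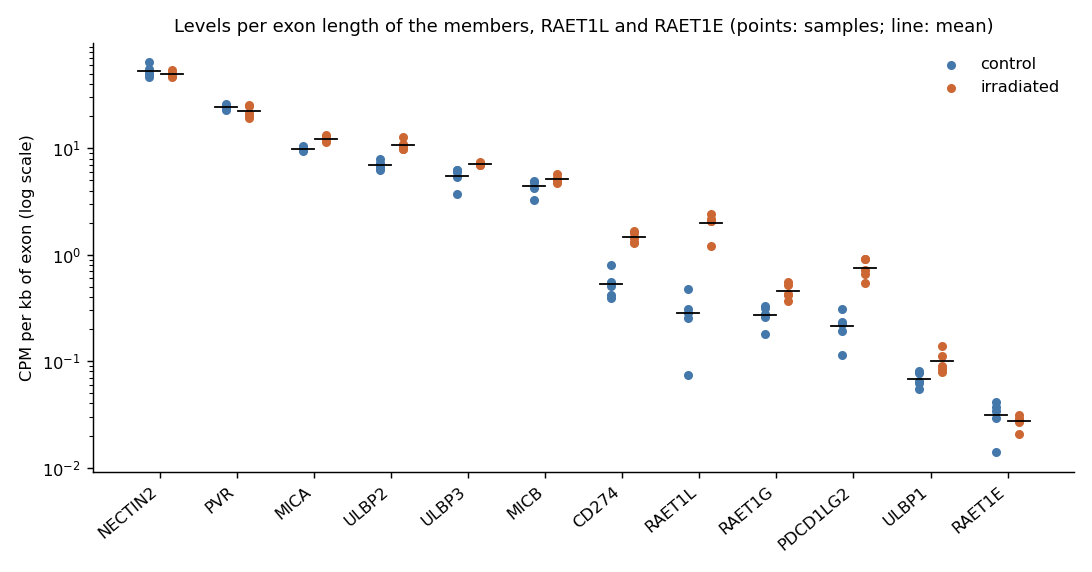
Levels of the members and of RAET1L and RAET1E in CPM per kb of exon on a log axis, ordered by the control mean. Points are samples and short lines are means (n = 5 per group). NECTIN2 and PVR stay the highest in both groups, and the largest upward steps are those of RAET1L, PDCD1LG2 and CD274.

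Other ligands of the same receptor systems were taken from lists. Of the 4 nectins and nectin-like molecules, 3 rose and 0 fell, against 23.9% and 22.7% of all genes tested. NECTIN4 went from 0.0489 to 0.129 CPM in control to 1.48 to 3.40 CPM in irradiated samples (log2 fold change 4.68, SE 0.18, edgeR adjusted p = 8.62e-06), with 4 to 18 counts per control sample, and it is a ligand of TIGIT. NECTIN3, a partner of NECTIN2 in cell junctions, rose from 32.0 ± 5.01 to 58.9 ± 7.34 CPM (log2 fold change 0.89, SE 0.067, edgeR adjusted p = 6.36e-05). NECTIN1 rose less (0.29, edgeR adjusted p = 0.00787, and 0.133 without the replicate block), and CADM1, the ligand of the NK receptor CRTAM, did not pass (-0.13, 0.0825). CADM1 was called lower under upper-quartile scaling (edgeR adjusted p = 0.0315) and on library totals alone (0.0116).

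Of 7 further NK-activating and co-stimulatory ligands, 5 were tested, 3 rose and 1 fell, against 23.9% and 22.7% of all genes tested. CD70, the ligand of CD27, rose from 3.54 ± 1.2 to 16.6 ± 3.44 CPM (log2 fold change 2.27), TNFSF9, the ligand of 4-1BB, from 11.8 ± 3.33 to 25.4 ± 2.73 CPM (1.14), and CD58, the ligand of CD2, from 12.8 ± 1.16 to 17.4 ± 0.881 CPM (0.44), each with an edgeR adjusted p at or below 0.000494. NCR3LG1 (B7-H6), the ligand of the NK receptor NKp30, fell from 11.3 ± 2.13 to 7.11 ± 0.840 CPM (-0.65, SE 0.14, edgeR adjusted p = 0.00698). It was lower in 5 of 5 pairs. BAG6, a chaperone that also binds NKp30, was at 267 ± 23.3 and 255 ± 12.9 CPM and did not pass (edgeR adjusted p = 0.270).

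Of 18 further inhibitory ligands, 11 were tested, 5 rose and 2 fell, against 23.9% and 22.7% of all genes tested. Those that rose included CD276 (B7-H3), from 140.0 ± 5.45 to 191 ± 13.9 CPM (log2 fold change 0.44, edgeR adjusted p = 0.000368), TNFRSF14 (HVEM), which engages BTLA, from 1.37 ± 0.314 to 3.01 ± 0.314 CPM (1.16, 0.000346), LGALS9 (galectin-9) from 9.60 ± 2.50 to 15.3 ± 2.47 CPM (0.69, 0.00974), and CEACAM1 from 1.04 ± 0.837 to 2.20 ± 0.943 CPM (1.28, 0.00183). CEACAM1 did not pass without the replicate block (edgeR adjusted p = 0.110). The fifth, HLA-G, a nonclassical class I molecule known from the placenta, passed narrowly (0.35, edgeR adjusted p = 0.0389) and lost its call under 10 of 13 alternatives. The most abundant, CD24, the ligand of the macrophage receptor Siglec-10, fell from 4603 ± 829.5 to 2504 ± 201 CPM (-0.86, SE 0.10, edgeR adjusted p = 0.000428), with no overlap between the groups. VTCN1 (B7-H4), a B7 relative made by several epithelia, fell by 0.26 on the log2 scale (edgeR adjusted p = 0.0351), a call lost without the replicate block (0.687) and without replicate 1, 4 or 5 (0.0881, 0.123 and 0.128). CD47, the signal that spares a cell from macrophages, and HLA-E, the ligand of the inhibitory NK receptor NKG2A, did not pass (log2 fold changes of 0.18 and 0.02, edgeR adjusted p = 0.0982 and 0.891). Without replicate 3, whose control was high in both, CD47 was at 0.26 (edgeR adjusted p = 0.00892) and passed. The listed inhibitory ligands thus included genes that rose and genes that fell.

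**Figure D5:**
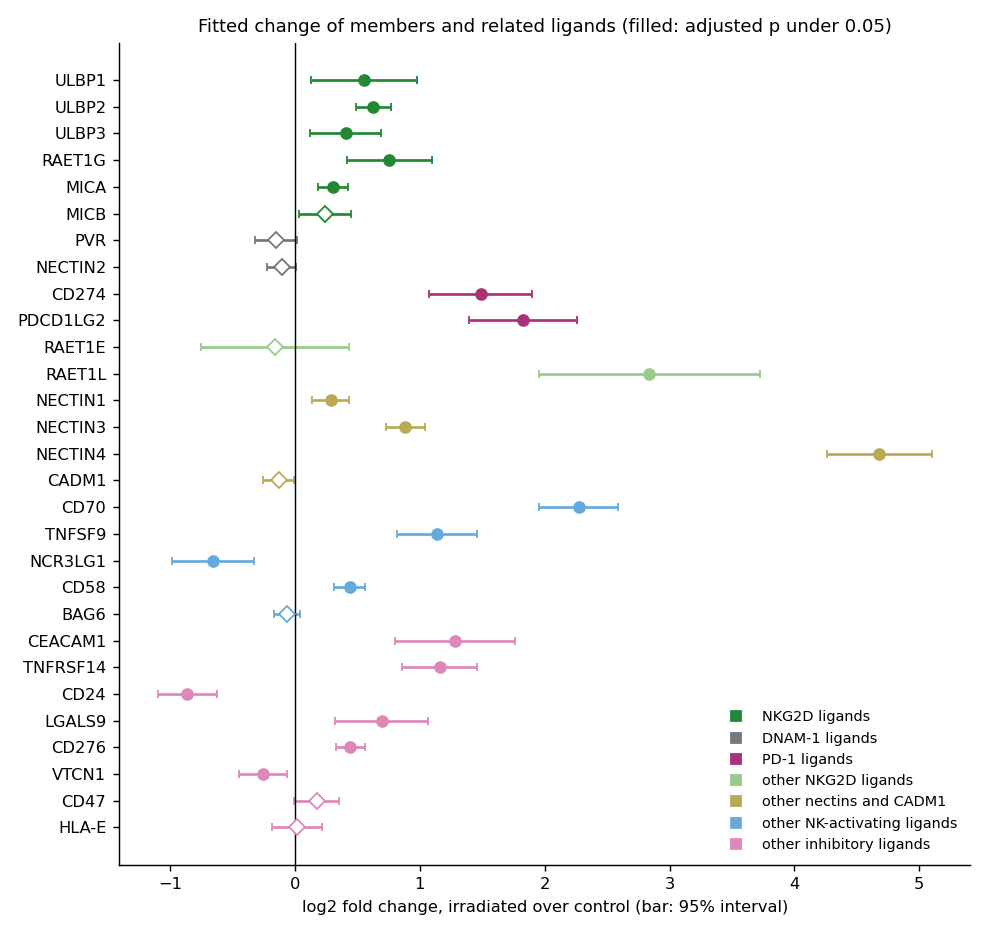
Fitted log2 fold change, irradiated over control, with its 95% interval for the 10 members and for the named ligands of the other lists (n = 5 per group). Filled circles have an edgeR adjusted p under 0.05 and open diamonds do not. CD274 and PDCD1LG2 lie at 1.49 and 1.83, the NKG2D ligands between 0.24 and 0.76, and PVR and NECTIN2 just below 0.

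Genes that set how much ligand stays at the surface were also read. MICA, MICB and ULBP2 can be shed by metalloproteases, and CMTM6 protects PD-L1 from lysosomal breakdown. Of 10 such genes 9 were tested, 2 rose and 1 fell, against 23.9% and 22.7% of all genes tested. MMP14, a membrane protease, rose from 278 ± 51.9 to 526 ± 49.1 CPM (log2 fold change 0.93, SE 0.066, edgeR adjusted p = 5.27e-05), CMTM6 rose from 75.8 ± 9.86 to 94.9 ± 4.0 CPM (0.33, 0.00421), and ADAM17, a sheddase of MICA and MICB, fell from 61.7 ± 8.06 to 51.9 ± 3.55 CPM (-0.24, 0.0340). The ADAM17 call was lost without replicate 1, 4 or 5 (edgeR adjusted p = 0.0630, 0.0632 and 0.0798), and without replicate 3 its log2 fold change was -0.14. Without samples 1 and 3 the log2 fold change of CMTM6 was 0.20 (edgeR adjusted p = 0.00647). The other 6 tested did not pass.

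Of 16 regulators linked with the members, all were tested, 7 rose and 1 fell, against 23.9% and 22.7% of all genes tested. The interferon-gamma pathway was represented by IFNGR1 (log2 fold change 0.48), JAK1 (0.60) and JAK2 (0.34), which all rose with an edgeR adjusted p at or below 0.00157. JAK1 went from 270.4 ± 27.2 to 408 ± 34.6 CPM. IRF1, the factor through which interferon-gamma acts on CD274, was at 27.1 to 33.3 CPM in control and 27.8 to 35.7 CPM in irradiated samples and did not pass (0.10, edgeR adjusted p = 0.232), though it did without replicate 3 (0.16, 0.0361). Among the kinases of the DNA damage response that act upstream of the NKG2D ligands, ATM, ATR, CHEK1 and CHEK2 did not pass (log2 fold changes of 0.11, -0.01, -0.16 and -0.16). ATM passed without replicate 3 (0.14, edgeR adjusted p = 0.0309), and CHEK1 was called lower without samples 1 and 3 (-0.51, 0.00325). These values describe RNA and not the activity of the kinases. E2F1, a factor of proliferating cells known to drive the mouse relatives of these ligands, fell (-1.25, SE 0.36, edgeR adjusted p = 0.0237). The E2F1 call was lost without replicate 2, 4 or 5 (edgeR adjusted p = 0.0555, 0.0796 and 0.0908), and without samples 1 and 3 the log2 fold change was -1.97 (0.000139). HSF1, the factor that binds heat shock elements, passed narrowly (0.11, edgeR adjusted p = 0.0357) and lost its call under 10 of 13 alternatives, among them DESeq2 (adjusted p = 0.0790), the fit without the block (0.186) and the fits without replicate 1, 4 or 5 (0.0746, 0.139 and 0.0815).

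The members' neighbours were counted within 100000 bases on either side of each locus, a window set after values had been seen. Around CD274 and PDCD1LG2, 5 genes were tested, and the 2 that rose were the PD-1 ligands. PLGRKT and RIC1 beside them did not pass (log2 fold changes of 0.14 and 0.01, edgeR adjusted p = 0.210 and 0.849). In the RAET1 cluster and its flanks 10 genes were tested, 6 rose and 1 fell. The 6 were ULBP1, ULBP2, ULBP3, RAET1G, RAET1L and the adjoining PPP1R14C (0.96, edgeR adjusted p = 0.000355). Around MICA and MICB 5 of 11 tested genes rose and 0 fell, the members counted in. The 5 were MICA, HLA-B, MICB-DT, TNF (log2 fold change 3.71) and LTB (4.34). Around PVR and NECTIN2 0 of 11 rose and 6 fell, with PVR and NECTIN2 not among the 6. Over all genes tested 23.9% rose and 22.7% fell.

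Of the other motifs searched on both strands of the 9 members' windows, a GC box (GGGCGG) was in 8 against 45.0% of all windows, a CCAAT box (CCAAT) in 4 against 34.6%, and a TATA box (TATAAA) in 1, ULBP1, against 11.5%. An E-box (CACGTG) and an NF-kB motif were in 0 of 9, against 7.26% and 5.91% of all windows. The window of PVR held none of the motifs named here. Absence says only that these letters were not within these bases.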

How the data were processed

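Gene counts were deposited as a single table of raw read counts, which the authors made by trimming adapters with Trim-Galore, aligning paired reads to GRCh38 (hg38) with STAR and counting over GENCODE genes, with no normalization. Strand handling in counting is not given in the sources used here. The table gave 61587 rows, of which 46 were Y pseudoautosomal copies (8 counts), and 0 sample columns were left unmapped. Samples were grouped by the GEO labels. Genes whose counts reached 200 in the sum of the 10 samples were fitted with edgeR 4.0.16 (R 4.3.3): TMM scaling, quasi-likelihood test, replicate number as a block, Benjamini-Hochberg adjustment over all 19006 genes, threshold 0.05. Log2 CPM within pairs used a prior count of 2. The fit was tested on simulated counts. Samples with the same number deviated together, with r of 0.22 to 0.51 across genes in the 5 pairs. Between different numbers the median was -0.13, and the range of -0.35 to 0.32 overlapped with that of the pairs. Each sample had its highest r with the sample of its own number in the other group. The numbers were therefore taken to pair the samples. No replicates agreed within sampling noise (chi-square of at least 8.53 per gene). Alternatives were DESeq2 1.42.0, other scalings, other filters, no block and leaving out samples. Levels per length used the union of exons of GENCODE release 44, and promoter windows came from RefSeq (9 of 10 members matched, not PDCD1LG2). The members and lists were chosen with earlier results of these data known. Named genes were all members, all other NKG2D ligands and nectins, and from each further list up to 4 genes past the threshold with the largest change in 1 direction in 5 of 5 pairs, plus inhibitory or activating ligands of at least 20 CPM. Genes named outside that rule (CDKN1A, MKI67, CEACAM19, JAK2, IRF1, E2F1, HSF1, HLA-G, the kinases of the damage response and locus neighbours) were chosen after their values were seen. Some genes of the lists and 1 motif searched are not reported here by name.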

Additional observations from a re-analysis of the deposited data

Results flagged for a closer look

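Among 72 groups of 5 samples checked for 1 sample far from its 4 fellows (Dixon's test, critical value 0.71), 6 had such a sample, and chance gives about 1 in 20, or 3.6. None of the 6 was among the 10 members. RAET1L was low in irradiated sample 2, at 1.61 CPM against 2.80 to 3.26 CPM in the others. CADM1 was low in control 1, at 84.1 CPM against 98.9 to 104 CPM. The other 4 were high values in control 3: TNFSF9 at 17.6 CPM (others 9.14 to 11.2), CD47 at 154 CPM (others 113 to 123), HLA-E at 415 CPM (others 214 to 231) and MMP14 at 369.7 CPM (others 246 to 268). Control 3 is also the control with the highest CDKN1A (208 CPM) and the lowest MKI67 (60.4 CPM), and whether its state accounts for these values was not tested.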

How the results depend on the processing

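Of 128 member values under 13 alternatives (12 planned, and 1, leaving out samples 1 and 3, added after seeing the data), 111 kept their direction and side of the threshold, 10 lost a call, 7 gained one and 0 reversed. Of the 7 members that rose, 5 (ULBP2, RAET1G, MICA, CD274 and PDCD1LG2) passed under every alternative. ULBP1 had no value without replicate 5 or without samples 1 and 3, where it fell under 200 counts. The count of members higher ran from 5 to 7 over all alternatives. The count of members lower, 0 as reported, was 1 under upper-quartile scaling (NECTIN2), 2 on library totals alone (PVR and NECTIN2), 1 without samples 1 and 3 (PVR), and between 0 and 1 with 1 replicate left out. The cause was not tested. Genes called higher and lower went from 4550 and 4307 to 3609 and 5894 on library totals alone. In the paired design, the fit with no replicate block called 7 members higher and 0 lower, with 3640 and 3366 of all genes, and changed no member's call. ULBP1 and RAET1G, with 262 and 518 counts in all, are the members that depth limits most.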
